A study of Mus musculus with 3 samples.

Results

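The Zfp promoter regions described here are the 397 regions, of 543367 in the deposited comparison of both precipitated libraries, whose nearest gene is named Zfp with a number and at most 1 letter and whose annotation is a promoter. That annotation reaches 2 kb upstream of the start of any annotated transcript and, in the Zfp peaks, about 1 kb downstream. They belong to 197 genes, of which 90 had 1 region and 107 had at least 2. Chromatin of Min6 cells, an insulin-producing mouse β-cell line taken from an insulinoma, was precipitated through Ets-1, a transcription factor, and sequenced (ChIP-seq). In 1 library the cells carried AdGFP, a control adenovirus for GFP, and in another AdEts1, an adenovirus that overexpresses Ets-1, each for 24 h in medium with 25 mM glucose; the names of the viruses stand for these libraries below. The remaining library is input chromatin without precipitation, whose virus the labels do not give. All 3 groups shared the cell line, the medium and the crosslinking, and each held 1 library, so differences between viruses could not be checked in replicates and carry no p-value.

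Most Zfp genes encode zinc finger proteins of the C2H2 type, in which tandem fingers read DNA. Many also carry a KRAB domain, which recruits Trim28 and, through it, the histone methyltransferase Setdb1 and HP1 proteins to silence transposable elements and other targets. The genes arose largely by tandem duplication and lie in clusters of near copies on several mouse chromosomes. Ets-1 belongs to the ETS family, whose members bind a GGAA core that is common close to the starts of mouse genes. Of the 197 genes, 193 were described as C2H2 and 122 as KRAB genes in the deposited descriptions. The regions were spread over most chromosomes, with 96 on chromosome 7, 44 on chromosome 13, 41 on chromosome 17 and 37 on chromosome 4. ChIP-seq holds no expression values, so whether these genes were active in Min6 cells was not tested.

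Few of the regions held an 8-letter ETS word, here CCGGAAGT or CAGGAAGT on either strand. Words in regions over an annotated start are shown first, because the region, the start and the word can be read together there. Zfp982 and Zfp668 each hold a further CAGGAAGT in the same region that is not shown. Each line gives 68 bases on the strand of the word, 5′ to 3′, from build mm10, with the word in capitals and 30 bases to either side.
Zfp787, chr7:6155467-6155534, minus strand: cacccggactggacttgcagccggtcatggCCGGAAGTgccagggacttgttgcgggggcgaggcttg
Zfp787, chr7:6155928-6155995, plus strand: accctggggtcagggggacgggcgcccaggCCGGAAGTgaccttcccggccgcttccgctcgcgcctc
Zfp759, chr13:67128121-67128188, plus strand: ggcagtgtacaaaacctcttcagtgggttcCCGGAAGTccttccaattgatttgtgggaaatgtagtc
Zfp13, chr17:23586231-23586298, plus strand: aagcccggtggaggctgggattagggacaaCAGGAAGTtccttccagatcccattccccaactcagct
Zfp668, chr7:127876832-127876899, plus strand: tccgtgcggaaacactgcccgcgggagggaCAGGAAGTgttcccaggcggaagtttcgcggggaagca
Zfp986, chr4:145868743-145868810, plus strand: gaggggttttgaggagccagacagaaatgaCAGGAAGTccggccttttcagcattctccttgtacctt
Zfp985, chr4:147553227-147553294, plus strand: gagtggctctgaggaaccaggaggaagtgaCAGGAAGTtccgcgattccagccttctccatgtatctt
Zfp985, chr4:147553279-147553346, plus strand: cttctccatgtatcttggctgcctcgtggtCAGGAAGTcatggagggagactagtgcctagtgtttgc
Zfp982, chr4:147492404-147492471, plus strand: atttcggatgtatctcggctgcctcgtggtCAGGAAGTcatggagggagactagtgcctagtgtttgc
The Zfp787 and Zfp759 lines carry CCGGAAGT and the others CAGGAAGT. Zfp982, Zfp985 and Zfp986 are KRAB genes on chromosome 4, and 2 pairs of their lines resemble each other. The Zfp982 line matched the second Zfp985 line at 62 of 68 bases, and the Zfp986 line matched the first Zfp985 line at 52 of 68, aligned at the word without gaps. The other pairs of words of these genes, including the Zfp982 word that is not shown, matched at 18 to 24 of 68.

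The 4 regions below hold no such word and carry the values that stand out. They are printed on the strand of the gene, with GGAAG, or CTTCC where it lies on the other strand, in capitals. GGAAG is the GGAA core with a further G, and GGAA without that G is not marked. Stretches of at most 300 bases are shown.
Zfp280d, chr9:72306539-72306838, plus strand: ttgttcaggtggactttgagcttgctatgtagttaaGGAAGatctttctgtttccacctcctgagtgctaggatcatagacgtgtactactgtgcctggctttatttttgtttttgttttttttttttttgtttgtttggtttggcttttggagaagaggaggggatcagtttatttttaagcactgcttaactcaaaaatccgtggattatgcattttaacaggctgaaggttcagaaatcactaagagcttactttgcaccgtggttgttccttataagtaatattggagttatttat
Zfp143, chr7:110061509-110061794, plus strand: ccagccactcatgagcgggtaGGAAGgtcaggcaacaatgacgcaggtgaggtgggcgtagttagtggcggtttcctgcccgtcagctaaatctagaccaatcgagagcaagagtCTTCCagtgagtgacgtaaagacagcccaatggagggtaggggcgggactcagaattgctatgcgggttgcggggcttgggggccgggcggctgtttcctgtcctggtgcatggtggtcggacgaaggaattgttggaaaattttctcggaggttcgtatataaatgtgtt
Zfp335, chr2:164911695-164911994, minus strand: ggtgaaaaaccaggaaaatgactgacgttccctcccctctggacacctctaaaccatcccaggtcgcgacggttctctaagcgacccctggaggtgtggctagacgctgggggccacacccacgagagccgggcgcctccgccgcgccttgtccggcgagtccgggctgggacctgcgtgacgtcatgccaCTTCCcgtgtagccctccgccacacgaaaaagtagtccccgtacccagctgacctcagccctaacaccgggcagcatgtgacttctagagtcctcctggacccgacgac
Zfp326, chr5:105876395-105876679, plus strand: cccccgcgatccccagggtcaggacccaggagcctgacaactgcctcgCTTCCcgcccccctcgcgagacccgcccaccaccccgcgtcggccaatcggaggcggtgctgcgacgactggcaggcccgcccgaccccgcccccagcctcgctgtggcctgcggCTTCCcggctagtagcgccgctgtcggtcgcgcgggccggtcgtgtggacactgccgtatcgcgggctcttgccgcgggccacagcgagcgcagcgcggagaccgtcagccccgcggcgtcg
The Zfp280d stretch holds 36.7% G and C, with a run of T, while those of Zfp143, Zfp335 and Zfp326 hold 54.9%, 63.3% and 76.1%. GGAAG was found once in the stretches shown of Zfp280d and Zfp335, and 2 times in those of Zfp143 and Zfp326. Those of Zfp280d, Zfp143 and Zfp335 also hold unmarked GGAA cores. A 5-letter string is common by its length alone, and GGAAG was present in 56.7% of all promoter regions.

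Depth limited every value. Library totals were 1938473 reads (AdEts1), 1775757 (AdGFP) and 3937473 (input). Of the 397 regions, 298 held at most 2 reads in the higher of the precipitated libraries (75.1%; 77.6% of all promoter regions), 29 held at least 5, and 18 was the highest. Counts were even for 70.9% of nonzero values with AdEts1 and 76.2% with AdGFP, so 2 reads mostly stand for 1 fragment sequenced from both ends. Intervals were therefore computed on fragments, with odd read counts rounded up, while the ratios themselves are of reads. In the intervals of ratios to input, the input alone was counted in reads. All are exact 95% intervals that cover counting error only, and reads copied by PCR are not independent molecules. Where a library held 0 reads, a ratio was taken against a floor of 3 reads, and no ratio is given where both libraries held 3 or fewer.

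Among the Zfp promoter regions, 31 were called as peaks in both libraries (7.81%), 138 with AdEts1 alone (34.8%) and 228 with AdGFP alone (57.4%). Over all promoter regions these shares were 6.61%, 37.0% and 56.4%, and over all compared regions 6.13%, 37.5% and 56.4%. The shares of the Zfp regions were thus near the background. Calls also left reads out, since 27 regions not called with AdEts1 held reads in that library, and 6 not called with AdGFP held reads there. By gene, 115 of the 337 Zfp genes named in any file had a promoter peak with AdEts1 (34.1%), 158 with AdGFP (46.9%) and 75 with both (22.3%), against 37.7%, 48.6% and 24.2% of the 19054 genes named. The AdGFP list was longer, with 26260 promoter peaks against 18184, and Zfp genes made up 0.982% and 0.929% of them.

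Summed over the regions, the AdEts1 library held 457 reads, the AdGFP library 637 and the input 44. Scaled to the library totals, the AdEts1 sum was 0.657 times that of AdGFP (95% interval 0.552 to 0.782). A region is listed because at least 1 library called it, so such a sum follows how many regions each list added. The ratio was 42.8 over the 138 regions called with AdEts1 alone, 0.0720 over the 228 called with AdGFP alone and 1.13 (0.704 to 1.81) over the 31 called in both. Every ratio of summed reads below has this property and describes the listed regions, not a difference between the viruses. The other promoter regions gave 0.770 (0.758 to 0.782) after 19 regions with a satellite repeat, which take most of their reads, were left out. The summed reads were 21.1 times the input with AdEts1 (15.3 to 29.9) and 32.1 times with AdGFP (23.4 to 45.1), against 14.2 and 18.5 times over the other promoter regions. Regions are listed because precipitated reads lay in them, so these ratios to input exceed 1 by construction and do not measure enrichment. Input reads lay in 37 of the 397 regions.

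The mix of listed regions differed with the distance from the start. Over an annotated start, 32 of 62 regions were called with AdEts1 alone and 22 with AdGFP alone, and away from one 106 and 206 of 335. The sums follow these calls. The 62 regions over an annotated start held 134 reads with AdEts1, 103 with AdGFP and 14 in the input, a ratio between viruses of 1.19 (0.809 to 1.73). The 335 regions away from a start held 323, 534 and 30 reads, a ratio of 0.554 (0.454 to 0.678). The other promoter regions differed in the same direction but by less, with 1.03 (0.995 to 1.07) over a start and 0.712 (0.699 to 0.724) away from one. Peaks were called with AdEts1 in 64.5% of the Zfp regions over a start (51.3 to 76.3) and 38.5% of those away from one, against 51.5% and 42.5% of the other promoter regions.

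**Figure D1:**
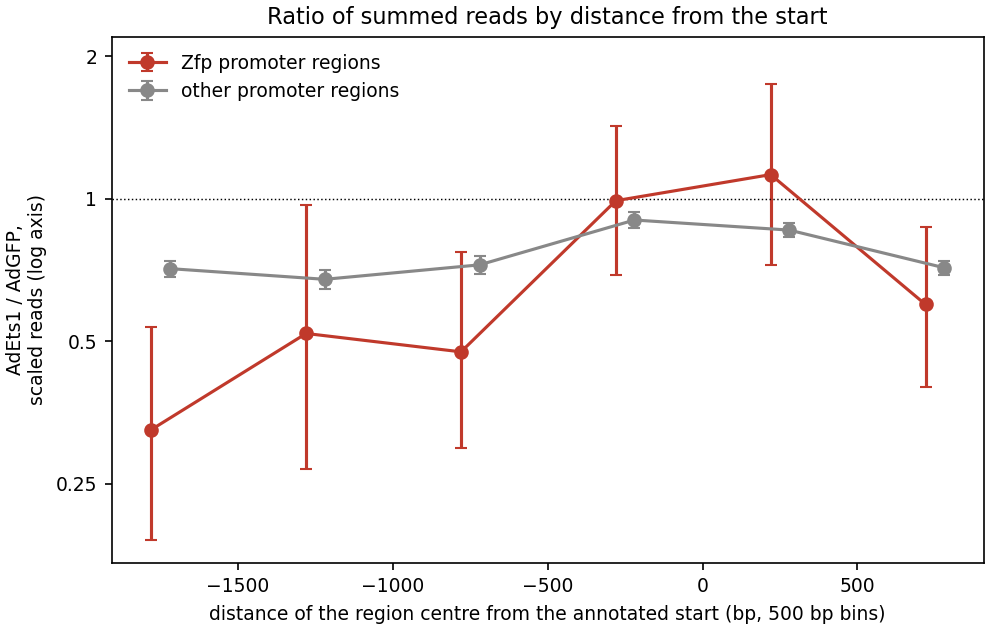
Ratio of summed reads, AdEts1 over AdGFP, scaled to library totals (vertical, log axis), by the distance of a region's centre from the annotated start (horizontal, bp, bins of 500 bp; the outer bins also hold the few regions beyond them). Points are sums over regions and bars exact 95% intervals of counting error; the Zfp regions lie at 0.325 in the bin farthest upstream and at 0.991 and 1.12 on either side of the start, while the other promoter regions lie between 0.676 and 0.902.

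Far upstream, the regions came mostly from the AdGFP list. In the bin farthest upstream, 83.3% of the 60 Zfp regions were called with AdGFP and 28.3% with AdEts1, against 63.5% and 43.2% of the other promoter regions there. These 60 regions held 44 reads with AdEts1 and 124 with AdGFP, a ratio of 0.325 (0.190 to 0.536). The other promoter regions of that bin gave 0.712 (0.684 to 0.740). From 500 bp upstream to the start, 70 regions held 133 and 123 reads (0.991, 0.690 to 1.42), and from the start to 500 bp downstream, 67 regions held 97 and 79 (1.12, 0.724 to 1.75). Both of these intervals held the value of the other promoter regions, 0.902 and 0.859.

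Not every annotated start is the start of the gene. Of the 397 regions, 248 were assigned to protein-coding transcripts, 78 to transcripts with a retained intron, 54 to processed transcripts and 17 to targets of nonsense-mediated decay, many of which start inside the gene. By GENCODE M21, 155 regions lay in an intron, 98 outside the gene, 84 over a non-coding exon or untranslated part and 60 over a coding exon. The centre of 196 regions lay within 2 kb of the outermost start of the gene, and 201 were farther away. Among the 62 regions over a start, 38 were near the outermost start, 23 of them called with AdEts1 alone and 9 with AdGFP alone, and held 102 reads with AdEts1, 47 with AdGFP and 11 in the input, a ratio of 1.99 (1.18 to 3.31). The 24 regions over an inner start, 9 and 13 of them called in 1 library alone, held 32, 56 and 3 reads, a ratio of 0.523 (0.265 to 1.00). Split the same way, the other promoter regions gave 1.09 (1.05 to 1.14) near the outermost start and 0.863 (0.810 to 0.919) at inner starts. The Zfp interval near the outermost start lies just above that of the other promoters, and without its 3 regions with the most reads the ratio was 1.74 (0.977 to 3.04), an interval that holds 1. This split was chosen after the values were seen.

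Base composition moved with position. Regions over a start had a median of 54.2% G and C and 9.50 CpG dinucleotides, and regions away from one 42.9% and 2. The 27 regions above 60% G and C held 64 reads with AdEts1 and 33 with AdGFP, a ratio of 1.78 (0.929 to 3.31), and the 124 regions at or below 40% held 112 and 219, a ratio of 0.468 (0.332 to 0.649). The other promoter regions moved the same way, from 1.25 (1.19 to 1.32) to 0.693 (0.674 to 0.712). What part base composition has in the difference by position was not tested.

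The region with the most reads lies in Zfp280d, at chr9:72306525-72307187. It held 0 reads with AdEts1, 18 with AdGFP and 0 in the input, and its AdGFP peak had a deposited fold of 4.64 and q of 0.000965. The AdGFP reads were 6.55 times the floor of 3 reads, and the interval on fragments put AdGFP at least 2.15 times above AdEts1. The region lies at the start of a retained-intron transcript, 31996 bp inside the gene from its outermost start. Zfp280d had 10 regions in all, more than any other member, and all 10 lay more than 30 kb inside the gene. Their sums were 9, 31 and 3 reads, so the other 9 regions held 9, 13 and 3.

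Zfp143, a transcription factor found at many promoters, had the second largest count with AdGFP. Its region chr7:110061509-110061794 covers an annotated start and held 0 reads with AdEts1, 9 with AdGFP and 1 in the input, a deposited fold of 4.33 and q of 0.0198. The ratio was 3.27 times the floor, and the interval on fragments had its lower limit at 1.00. The 9 reads were rounded up to 5 fragments, the fewest that can pass against 0 reads. Zfp280d and Zfp143 were the only Zfp regions whose interval left out 1, both higher with AdGFP. That is 2 of 397 regions, where 0.117% of all promoter regions and 0.0709% of all compared regions passed in this direction. None passed in the direction of AdEts1, where the background was 0.124% and 0.0388%. Against 0 reads, at least 6 fragments are needed in that direction and 5 in the other.

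Zfp335, which is known to associate with histone methyltransferase complexes, had its highest region over its outermost start. At chr2:164911663-164911994 the AdEts1 library held 8 reads, the AdGFP library 1 and the input 0, a ratio of 7.33 (0.363 to 180), with a deposited fold of 3.01 and q of 0.285. The other 2 regions of this gene held 2 reads each, with AdEts1 alone. Zfp69, a KRAB gene linked to diabetes in mouse crosses, held 8, 1 and 2 reads over its start at chr4:120951569-120951939, in a region with 73.9% G and C. Its ratio and interval were the same as those of Zfp335, but the input held reads here. For both genes the 1 AdGFP read counts as a whole fragment in the interval, which spans 1 widely.

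Zfp326, a subunit of a complex that acts on elongation by RNA polymerase II, held 5, 0 and 0 reads over its start at chr5:105876395-105876679. Its AdEts1 peak had a fold of 3.71 and q of 0.0289, the highest fold of the Zfp promoter peaks in that list. Zfp827, which binds telomeric chromatin together with the NuRD complex, was read by both libraries at adjoining places. The region over its outermost start, chr8:79028264-79028512, held 6, 0 and 0 reads, and one 397 bp upstream of that start held 0, 5 and 0. Its peak with the lowest q (0.0289) with AdEts1 lay at an inner start 92134 bp into the gene, where 4, 0 and 0 reads were counted. Zfp691 also held 6 and 0 reads over its start, beside 2 in the input.

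**Figure D2:**
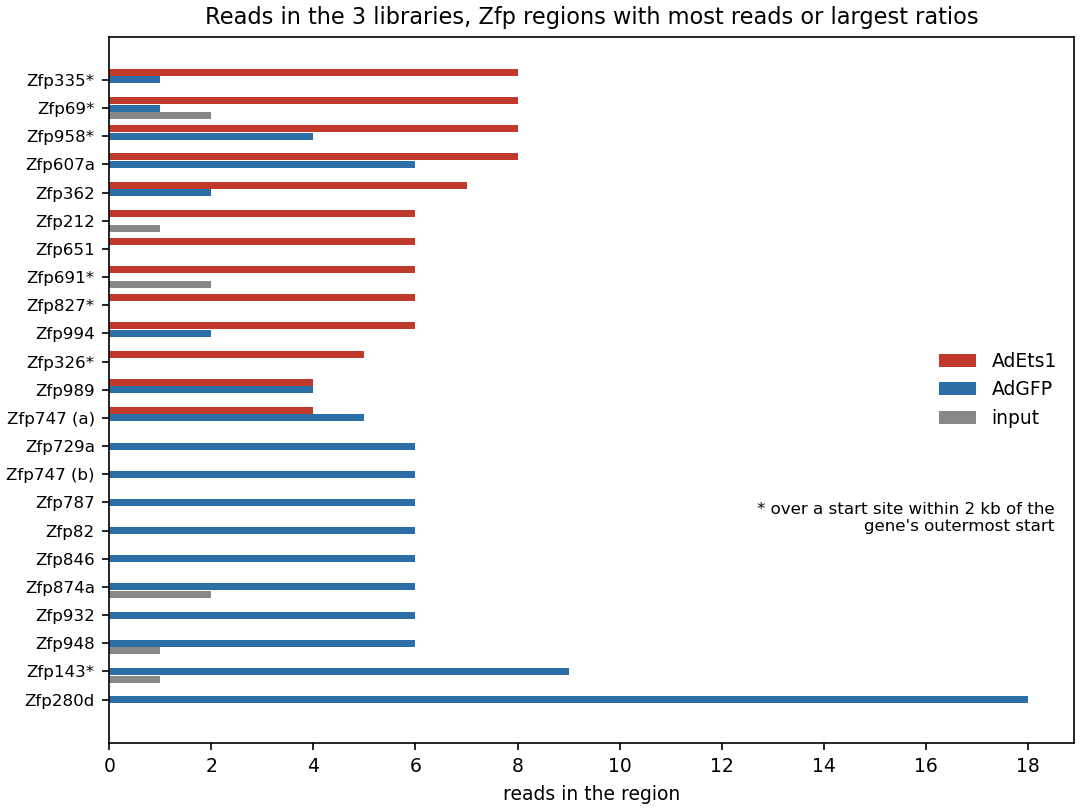
Reads (horizontal) in the 3 libraries for the 10 regions with the most reads and the 10 with the largest ratio in each direction among those with at least 5 reads, 23 regions in all; bars are single libraries with no error. AdEts1 bars end at 8 reads and those of AdGFP at 18 (Zfp280d); input bars reach 2, and starred regions lie over a start within 2 kb of the outermost start of the gene.

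With a minimum of 5 reads in the higher library, 29 regions could be compared at 2-fold. Zfp335, Zfp69, Zfp362 and Zfp994 were past 2-fold with AdEts1, and 11 regions were past it with AdGFP. This is 4 and 11 of 29, where 27.2% and 29.2% of the promoter regions with that minimum passed, and 19.3% and 38.7% of all compared regions. Zfp362 held 7, 2 and 0 reads (ratio 3.21, 0.363 to 180) and Zfp994 6, 2 and 0 (2.75, 0.221 to 144). Both lie in introns and were called in both libraries. The count is uneven by construction. The floor applies only against 0 reads, so 6 reads against 2 passed and 6 against 0 with AdEts1 did not. With the floor for every count under 3, an alternative chosen after seeing the data, 3 and 11 regions passed, and Zfp994 is below 2-fold. Against 0 reads it takes 7 reads with AdEts1 but 6 with AdGFP, which was scaled to a smaller total. In 4 regions there were 6 reads against 0 with AdEts1 (Zfp691, Zfp827, Zfp651 and Zfp212), and 9 held 6 against 0 with AdGFP. Without scaling, the counts were 9 and 11.

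The 9 regions with 6 AdGFP reads and none with AdEts1 belonged to Zfp729a, Zfp747, Zfp82, Zfp787, Zfp846, Zfp872, Zfp874a, Zfp932 and Zfp948. None of them was over an outermost start. They lay over coding exons, introns or upstream of the gene, and their share of G and C was at most 49.0%. AdGFP peaks had a q of at most 0.05 at Zfp280d, Zfp143, Zfp729a, Zfp787 and Zfp846, so 1.94% of the Zfp promoter peaks in that list passed, against 1.01% of all promoter peaks. With AdEts1, 2 peaks passed, at Zfp326 and Zfp827 (1.18%), against 2.73%.

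Some regions were read by both libraries. Zfp607a held 8, 6 and 0 reads at chr7:27861882-27862441 (ratio 1.22, 0.207 to 8.34) but was called there with AdGFP alone. This region shares a run of 50 bases with a Zfp780b region, so reads of such near copies may have been placed at either gene. Zfp958, a KRAB gene, held 8, 4 and 0 reads over its start (1.83, 0.263 to 20.3) and was called in both. Zfp747 held 4, 5 and 0 reads and Zfp989 4, 4 and 0, both upstream of the gene. No region called in both libraries held at least 5 reads in each. The 31 regions called in both held 86 and 70 reads and none in the input.

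**Figure D3:**
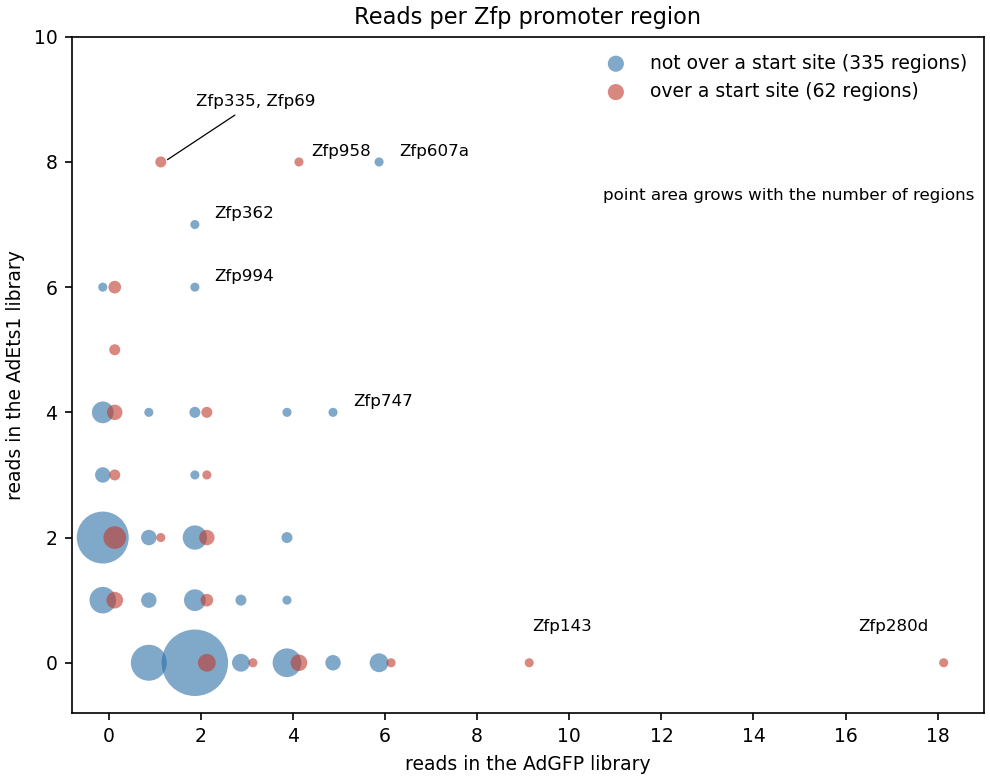
Reads per Zfp promoter region with AdGFP (horizontal) and AdEts1 (vertical); each point stands for all regions with that pair of counts, its area growing with their number, red for regions over a start and blue for the rest. The points of largest area lie at 2 reads in 1 library and 0 in the other, and Zfp280d stands alone at 18 and 0.

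Of the 24 Zfp genes listed for a known role, 15 had a promoter region, and Zfp36, Zfp91, Zfp219, Zfp281, Zfp292, Zfp462, Zfp521, Zfp568 and Zfp809 had none. Apart from Zfp143 and Zfp335, their counts were low. Zfp57, the KRAB protein that keeps imprints, held 2, 0 and 0 reads over a start and 0, 2 and 0 in a neighbouring region. Zfp410, an activator of the NuRD subunit gene Chd4, held 2, 2 and 0 reads at a retained-intron transcript and 0, 4 and 0 in a region over a coding exon. Zfp64 held 3, 0 and 0 reads at an inner start. Zfp42, a marker of pluripotent cells, held 0, 1 and 0 reads, and Zfp516, which acts in brown fat, 0, 5 and 1. Zfp106, Zfp148, Zfp207, Zfp217, Zfp384, Zfp423, Zfp703 and Zfp750 held between 0 and 4 reads in any library and region. No difference between viruses was detectable for these genes at this depth.

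KRAB genes and the rest gave nearly the same pooled ratio. The 233 regions of KRAB genes held 268 and 373 reads (0.658, 0.522 to 0.824) and the 164 others 189 and 264 (0.656, 0.501 to 0.865). Over a start, the 27 KRAB regions held 57, 35 and 7 reads (1.49, 0.792 to 2.82) and the 35 others 77, 68 and 7 (1.04, 0.646 to 1.72), intervals that overlap. Regions whose gene has another Zfp gene within 200 kb, 201 regions of 107 genes, gave 0.647 (0.503 to 0.824), and the 196 others 0.668 (0.523 to 0.859). By chromosome, the 44 regions on chromosome 13 held 22 reads with AdEts1 and 89 with AdGFP (0.226, 0.104 to 0.440). The 28 on chromosome 9 held 31 and 67 (0.424, 0.222 to 0.803). Of all chromosomes with Zfp regions, these were the only ones whose interval left out 1. The chromosome 9 interval holds 0.657, the ratio of all Zfp regions, and 0.770, that of the other promoter regions. The chromosome 13 interval holds neither. A single Zfp280d region held 18 of the 67 AdGFP reads on chromosome 9. The sums follow the calls, with 7 regions called with AdEts1 alone and 35 with AdGFP alone on chromosome 13, and 10 and 16 on chromosome 9. The other promoter regions were not split by chromosome. Chromosome 4 gave 1.06 (0.604 to 1.86) and chromosome 2 gave 1.41 (0.704 to 3.04). Only 3 of the 44 regions on chromosome 13 lay over a start.

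The ETS words were rare in the regions as a whole and more frequent at starts. CCGGAAGT or CAGGAAGT was present in 14 of 397 regions (3.53%, 1.94 to 5.85), against 2.58% of all promoter regions and 2.62% of promoter regions of the same length. With the letters of the words reversed, 2.52% of the Zfp regions and 2.05% of all promoter regions matched. Over a start, 8 of 62 Zfp regions held a word (12.9%, 5.74 to 23.9) against 5.51% of all promoter regions over a start. That interval counts the 8 regions as independent. Some of them belong to the same gene, Zfp787, and words of Zfp985 have flanks like those at Zfp982 and Zfp986. Away from a start, 6 of 335 Zfp regions held a word (1.79%) against 2.17%. By cluster, 11 of the 201 regions with a Zfp neighbour and 3 of the 196 without one held a word.

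The 14 regions with a word held 25 reads with AdEts1, 17 with AdGFP and 1 in the input, a ratio of 1.35 (0.523 to 3.51), and the 383 without one gave 0.638 (0.534 to 0.762), so the intervals overlap. Zfp787, whose words are printed above, held 4, 2 and 0 reads over one start and 1, 2 and 0 over the other. Zfp13 held 3, 2 and 0 reads, Zfp668 2, 2 and 0, and Zfp759 0, 2 and 0. The regions with a word on chromosome 4 that are over a start were read with AdEts1 alone, Zfp982 and Zfp985 with 4 reads each and Zfp986 with 2. Other promoter regions of Zfp982 and Zfp986 held AdGFP reads. Zfp982 and Zfp985 share a run of 50 bases, so their reads may not be independent. In all, 15 regions shared such a run with another Zfp region, and without them the pooled ratio was 0.644. Zfp668 held 5, 0 and 0 reads at a second start, in a region without the word.

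To leave aside how regions were listed, the peaks of each library were laid over RefSeq promoter windows (GRCm38, 250 bases before to 50 after the start), which do not depend on reads. This comparison was added after the data were seen. Of the 401 windows of 331 Zfp genes, 40 overlapped a peak with AdEts1 (9.98%, 7.22 to 13.3), against 1905 of 32450 windows of other genes (5.87%, 5.62 to 6.13). With AdGFP, 25 overlapped a peak (6.23%, 4.07 to 9.07), against 6.27% of the others (6.004 to 6.53). For peaks of any fold, Zfp windows were thus met more often than those of other genes by AdEts1, and at nearly the same share by AdGFP. The intervals of the Zfp windows in the libraries overlap each other. With 1 window a gene the shares were 9.37% and 4.83%, against 6.01% and 6.24%. Windows of 1 gene can overlap and share a peak. Counted by gene, 10.6% of Zfp genes (7.48 to 14.4) and 6.62% of others had a window met by an AdEts1 peak, and 6.34% (3.97 to 9.53) and 7.01% by an AdGFP peak. With peaks of a deposited fold of at least 2, the share of Zfp windows was above that of other genes in both libraries. It was 5.24% (3.27 to 7.89) against 2.51% (2.34 to 2.68) with AdEts1. With AdGFP it was 2.49% against 1.10%, with intervals that overlap slightly. At this fold the higher share was thus not limited to AdEts1. Counted by gene at this fold, 16 of the 331 Zfp genes were met with AdEts1 (4.83%, 2.79 to 7.73) against 2.79% of other genes (2.60 to 3.00). With AdGFP, 6 were met (1.81%, 0.668 to 3.90) against 1.27% (1.14 to 1.41). These intervals by gene overlap in both libraries.

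**Figure D4:**
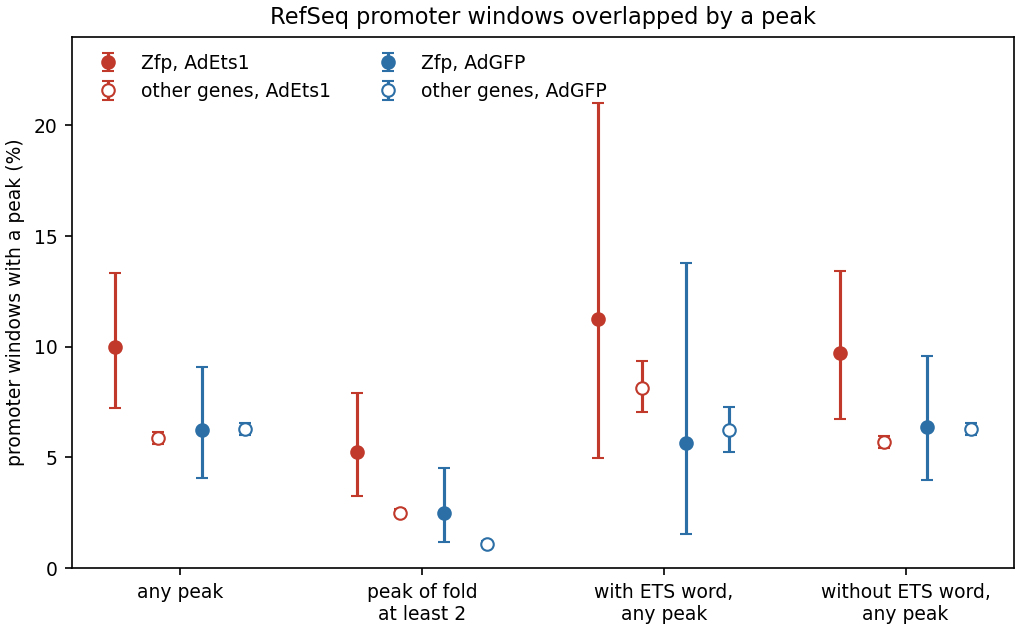
Share of RefSeq promoter windows overlapped by a peak (vertical, %) for Zfp genes (filled) and other genes (open) in the AdEts1 (red) and AdGFP (blue) libraries; bars are exact 95% intervals of counting error. For any peak, Zfp windows stand at 9.98% and 6.23% and other windows at 5.87% and 6.27%; among windows with an ETS word the wide Zfp intervals hold the values of the other genes.

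The Zfp windows were richer in the ETS words, 71 of 401 (17.7%) against 6.93% of the windows of other genes. Peaks of AdEts1 overlapped 8 of the 71 (11.3%, 4.99 to 21) and 32 of the 330 windows without a word (9.70%, 6.73 to 13.4), so Zfp windows did not differ by the word beyond counting error. Windows of other genes were met at 8.13% with a word and 5.70% without. With AdGFP, Zfp windows were met at 5.63% and 6.36%, and those of other genes at 6.22% and 6.27%. The windows with a word and an AdEts1 peak were those of Zfp37, Zfp184, Zfp263, Zfp418, Zfp787, Zfp982 and Zfp985. The median G and C content was 55.0% for the Zfp windows and 52.7% for the others. At 50% G and C or less, 5.36% of Zfp windows and 5.31% of others were met by an AdEts1 peak, from 50 to 60% the shares were 11.9% (7.54 to 17.7) and 5.45%, and above 60% 11.5% (6.27 to 18.9) and 7.11%.

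Genes that act with KRAB proteins were read at shares not far from those of all named genes. Of 26 listed genes, 20 were named in the files, 9 with a promoter peak for AdEts1, 11 for AdGFP and 6 for both (45%, 55% and 30%, against 37.7%, 48.6% and 24.2% of all named genes). Their 39 promoter regions held 81, 168 and 40 reads, a ratio of 0.442 (0.30 to 0.657). The corresponding value for promoter regions of genes other than Zfp, with satellite regions left out, was 0.770. Of the 39, 7 regions held at least 5 reads in the higher library, and 1 of these was past 2-fold with AdEts1 and 5 with AdGFP. Among all promoter regions with that minimum, 27.2% and 29.2% passed. The region past 2-fold with AdEts1 lay at the NuRD helicase gene Chd3 (10, 0 and 0 reads, 3.05 times the floor). The 5 with AdGFP were 1 of the maintenance DNA methyltransferase gene Dnmt1 (5, 30 and 5 reads), 3 of the de novo methyltransferase gene Dnmt3a (up to 22, 47 and 18 reads) and 1 of Resf1 (1, 7 and 2 reads), all with input reads. The other 2 of these Dnmt3a regions held 8, 15 and 6 reads and 2, 22 and 2. Together, the Dnmt1 and Dnmt3a regions past 2-fold took most of the AdGFP and input reads, and a smaller share of the AdEts1 reads. The pooled ratio of 0.442 therefore rests largely on 2 genes, and its value without them was not computed. No promoter region was listed for Trim28 or Setdb1.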

How the data were processed

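A comparison table of regions and the peak lists of AdGFP and AdEts1 were used. BWA 0.7.12, MACS2 2.1.0, Trimmomatic and FastQC were run with build mm10, per the submitters' processing notes. Settings, counting and the control used for peaks are, in the sources used here, not given. Per the file headers, the authors deposited read counts, RPM values (count plus 1, scaled to the reads of the library), a ratio of RPM values with its log2, and for each peak a score, a fold and the −log10 of its p-value and q-value.

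Library totals were recovered from counts and RPM. Transcript coordinates matched GENCODE M21 for 99.7% of the 292 transcripts. List starts, counted from 0, were raised by 1. Intervals are exact (binomial, 95%), on fragments for ratios except that the input was counted in reads, and scripts were tested on simulated data. Named regions were the 10 with the most reads, the 10 with the largest ratio in each direction, those called in both with at least 5 reads in each, and members with a known role; the rest were chosen after their values were seen. The members and lists were chosen with earlier results of these data known. Satellite regions were those with the most frequent 20-base word of the region with the most reads (25 regions). Alternatives were other thresholds, scalings, promoter definitions and words. Tools were pysam 0.24.0, scipy 1.17.1, matplotlib 3.10.9, pandas 2.3.3, numpy 2.4.6 and Python 3.11.15.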

Additional observations from a re-analysis of the deposited data

How the results depend on the processing

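No paired analysis was possible because there is only 1 library per condition. Of 75 alternative values, 50 stayed within the interval of the reported value or, for counts, within 1.5 times of it, 10 moved beyond the interval, 11 counts fell and 2 rose by more than 1.5 times, and 2 ratios crossed 1. The ratio between viruses was 1.13 over regions called in both libraries and 1.19 over regions at a start, in place of 0.657. Scaled to the reads in all promoter regions, the ratios to input were 2.69 and 3.88 in place of 21.1 and 32.1. With at least 3 or 5 reads, 13.1% and 13.8% of regions were called in both, and with at least 5, 27.6% with AdEts1 alone. Regions past 2-fold, AdEts1 and AdGFP, numbered 0 and 1 with at least 10 reads, 3 and 2 at 3-fold, 0 and 2 by the interval, and 10 and 16 by the deposited ratio with 1 added. Without scaling, 9 were higher with AdEts1. Genes with a promoter peak fell to 2 and 5 at a q of at most 0.05, 4 and 6 at a fold of at least 3, and 32 and 38 at a −log10 p of at least 3. The share with a word was 0.756% for CCGGAAGT alone, 59.7% for GGAAG and 17.7% in RefSeq windows of member genes. The cause of each was not tested. The scaling-free, floor, start site, shared-run, Zfp280d, outermost-start and RefSeq peak alternatives were also chosen after seeing the data. Most regions rest on 1 fragment, and 1 library a group leaves variation between libraries unmeasured.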

Other observations

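Other zinc finger families were read in few promoter regions. The 41 regions of Zbtb genes, which join zinc fingers to a BTB domain, held 62 reads with AdEts1 and 58 with AdGFP (ratio 0.979, 0.571 to 1.68), and the 14 of Klf genes 21 and 22 (0.874, 0.360 to 2.33). The 12 regions of Zscan genes held 14 and 23 reads and the 6 of Zkscan genes 6 and 12, too few to set apart from the Zfp regions.

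Outside promoters, the 1312 intron regions of Zfp genes held 1364 and 1878 reads (0.665, 0.602 to 0.735) and the 916 intergenic regions nearest to them 920 and 1226 (0.687, 0.608 to 0.777). The 124 regions over their 3′ UTRs held 150 and 188 reads (0.731, 0.532 to 1.00). The 54 downstream regions held 66 and 66 reads (0.916, 0.548 to 1.53). Each of these intervals holds 0.657, the ratio of the promoter regions.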
